A study of Mus musculus with 12 samples.

Results

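Scavenger receptors for particles and lipids were examined in bone marrow-derived macrophages (BMDMs) exposed to urban particulate matter (PM). The group holds 7 of the 48795 genes listed in the counts: Marco, Msr1, Cd36, Scarb1, Scarb2, Cd68 and Olr1, named as members of this receptor family. They were chosen with earlier results of these data known, so counts of members beside shares of all genes are descriptive. RNA was sequenced in 12 libraries, 2 for each of 6 groups of genotype and treatment. WT BMDMs (strain label C57BL/6) and Acod1-/- BMDMs (strain label C57BL/6NJ-Acod1em1(IMPC)J/J) were grown from the marrow of male mice 7 to 11 weeks old by culture with M-CSF for 8 to 10 days. Acod1-/- mice lack the mitochondrial enzyme that makes itaconate. Each genotype received vehicle (PBS), PM at 20 μg/cm2 for 24 hours, or 4-octyl itaconate (OI), an itaconate derivative that enters cells, at 0.25 mM for 2 hours before the same PM. OI without PM was not analysed here.

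Scavenger receptors are surface or vesicle proteins that bind modified lipoproteins, microbes, dying cells and inhaled particles, without the fine specificity of antibody receptors. Marco and Msr1 are class A receptors with collagen-like stalks that bind unopsonised particles, and Marco is known from alveolar macrophages, which meet inhaled dust. Cd36, Scarb1 and Scarb2 belong to class B: Cd36 takes up oxidised lipoproteins and long-chain fatty acids, Scarb1 is the receptor for high-density lipoprotein (HDL), and Scarb2 (LIMP-2) is an abundant protein of the lysosomal membrane. Cd68 is a heavily glycosylated protein of late endosomes and lysosomes that is widely used as a macrophage marker, and Olr1 (LOX-1) is a lectin-like receptor for oxidised low-density lipoprotein.

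The libraries held between 33616577 and 36817898 counts on genes. Of the 48795 genes, 11228 were tested, those with a CPM (count scaled to library size) above 1.5 in at least 2 of the 12 libraries. Replicates were closer in some groups than in others. A chi-square of the counts of both libraries, divided by its degrees of freedom and near 1 for counting noise alone, came to 58.5 in OI and PM-treated WT and 27.3 in PM-treated WT BMDMs, against 2.61 to 8.32 in the other groups. In the first pair 144 genes differed by 2-fold or more, and across 11214 genes, which are not independent, the replicate difference ran against exonic length (Spearman's rho -0.61). That rho was -0.595 in PM-treated WT, 0.355 in PM-treated Acod1-/- and -0.29 to 0.08 in the other 3 groups. For the member calls that rest on these libraries, values with 1 library left out are also given. Acod1 RNA was present in the libraries labelled Acod1-/-, at 101 ± 9.57 CPM after PM against 176 ± 7.78 CPM in WT (SD, n = 2), and counts per gene do not show which exons were read. Nnt and Wdfy1, genes that differ between C57BL/6 substrains, were higher in the libraries labelled Acod1-/- than in WT under each of the 3 treatments, with log2 fold changes of 0.95 to 1.27 for Nnt and 1.96 to 2.25 for Wdfy1. The strain label of WT is C57BL/6, while the study's methods name C57BL/6NJ for it, the background of the Acod1-/- mice. Genotype and substrain cannot be told apart in these samples.

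All 8 macrophage markers examined passed the filter, and their summed level was 12830 to 26150 CPM. It was highest in the PM-treated libraries, at 21980 to 26150 CPM, against 12830 to 14870 CPM in all others. Most of this sum is Lyz2 (lysozyme), whose mean went from 9992 to 19460 CPM with PM in WT. With PM, 5 of the 8 markers were called higher and 1 lower in WT, and 4 higher and 1 lower in Acod1-/-. Among all tested genes 12.6% were called higher and 12.2% lower with PM in WT, and 12% and 11.9% in Acod1-/-. With OI before PM, against PM alone, 7 of the 8 were called lower and 0 higher in each genotype. Their median log2 fold change in that comparison was -0.80 in WT and -0.99 in Acod1-/-. Among all tested genes 22.6% were called lower and 21.3% higher there in WT, and 20.6% and 13.9% in Acod1-/-. Against vehicle, OI and PM-treated BMDMs had 4 of the 8 called lower and 2 higher in WT, and 5 lower and 2 higher in Acod1-/-. Among those called lower were Mertk and Fcgr1, at -1.36 and -1.58 in WT and -1.18 and -1.90 in Acod1-/-, while Csf1r and Itgam were called higher in both. Against vehicle, 31.9% of all tested genes were called lower and 33.6% higher in WT, and 26.7% and 22.7% in Acod1-/-. The sum of 8 neutrophil markers was 6.47 to 7.35 CPM with vehicle, 13.1 to 20.2 CPM with PM and 29.5 to 61.0 CPM with OI and PM, while Ly6g was at 0 in 11 of the 12 libraries. The higher sum with OI came from S100a8, which went from 12.6 to 44.6 CPM in WT and from 12.8 to 32.1 CPM in Acod1-/-. Of the 3 neutrophil markers tested, S100a8 was called higher with OI and S100a9 and Ngp lower in both genotypes (log2 fold changes of 1.82, -1.93 and -3.12 in WT). S100a9 and Ngp passed the filter on low counts only through libraries treated with PM alone, so their lower calls are not independent of that filter. Lists of dendritic cell, B cell, T cell, fibroblast, endothelial and adipocyte markers each summed to at most 2.34 CPM. The part of these shifts in the receptor results was not tested, and in bulk RNA a change in cell make-up and a change in RNA per cell cannot be told apart.

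The 7 genes lie on the minus strand of 5 chromosomes in GRCm38, and none shares exon bases with another annotated gene, so reads from overlapping genes do not enter their counts. Marco (ENSMUSG00000026390.7) is at chr1:120474538-120505024 and Msr1 (ENSMUSG00000025044.16) at chr8:39581685-39642673. The class B genes share chromosome 5, with Cd36 (ENSMUSG00000002944.15) at chr5:17781690-17888801, Scarb2 (ENSMUSG00000029426.8) at chr5:92441314-92506833 and Scarb1 (ENSMUSG00000037936.15) at chr5:125277087-125341094. Cd68 (ENSMUSG00000018774.13) is at chr11:69664213-69666153 and Olr1 (ENSMUSG00000030162.14) at chr6:129485244-129507165. Counts were summed over exons, whose joined length ran from 1257 bases for Cd68 to 8500 bases for Scarb1.

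Promoter sequence is shown for the pair of receptors with the largest log2 fold changes after PM, Marco and Olr1, and for Cd36, the receptor with the highest level, which rose with OI. The table of RefSeq promoters used here, on GRCm38, held an entry for 5 of the 7 members, and Msr1 and Scarb1 are named only. The sequences below are the 250 bases before the start site on the minus strand, 5′ to 3′, at chr1:120505025-120505274 for Marco, chr6:129507166-129507415 for Olr1 and chr5:17835897-17836146 for Cd36, whose RefSeq start lies inside the annotated gene. Capitals mark matches to the motifs searched.
Marco: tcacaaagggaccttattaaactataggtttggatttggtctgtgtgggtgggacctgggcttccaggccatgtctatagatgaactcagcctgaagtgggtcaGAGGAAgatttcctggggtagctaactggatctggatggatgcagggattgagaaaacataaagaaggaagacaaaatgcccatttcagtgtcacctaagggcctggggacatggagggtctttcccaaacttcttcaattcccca
Olr1: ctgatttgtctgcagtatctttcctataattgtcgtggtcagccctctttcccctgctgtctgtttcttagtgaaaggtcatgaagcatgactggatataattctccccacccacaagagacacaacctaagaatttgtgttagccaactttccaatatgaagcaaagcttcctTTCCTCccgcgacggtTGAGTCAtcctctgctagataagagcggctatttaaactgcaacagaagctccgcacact
Cd36: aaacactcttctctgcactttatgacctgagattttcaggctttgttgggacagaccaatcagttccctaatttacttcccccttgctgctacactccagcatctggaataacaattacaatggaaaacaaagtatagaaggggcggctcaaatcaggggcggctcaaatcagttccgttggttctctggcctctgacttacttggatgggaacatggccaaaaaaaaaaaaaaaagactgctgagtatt

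4 short motifs were searched on both strands of the 250 bases. The AP-1 element TGANTCA was found in the promoters of Olr1 (1 match, starting 60 bases before the start site) and Cd68 (2 matches), and it occurs in 6.7% of the 32851 promoters in the RefSeq table. The PU.1 core GAGGAA was found in those of Marco, Olr1 and Cd68 and occurs in 23.3% of all promoters. The antioxidant response element core TGACNNNGC was found in that of Scarb2, against 10.2% of all promoters, and the E-box CACGTG in none of the 5, against 6.0%. None of the 4 motifs matched in the Cd36 promoter. The matches do not overlap one another, and they describe letters in these windows and not binding.

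Expression of the 7 receptors spanned more than 4 orders of magnitude. Per kb of exon, the level in vehicle-treated WT BMDMs was 2378 ± 69.7 CPM per kb for Cd36 and 1119 ± 16.7 CPM per kb for Cd68. Msr1 followed at 103 ± 1.58, Scarb2 at 45.3 ± 0.12, Scarb1 at 11.9 ± 0.41, Marco at 1.49 ± 0.18 and Olr1 at 0.099 ± 0.0018 CPM per kb (SD, n = 2). No neighbours in this order overlapped in their libraries. After PM the order of the low receptors changed, with Marco at 76.5 ± 7.18 CPM per kb in WT, above Scarb2 at 46.2 ± 1.3, and at 40.8 ± 1.14 CPM per kb in Acod1-/-, below Scarb2 at 45.2 ± 0.81. Fatty acid and lipoprotein receptor Cd36 made up 64.3 to 65.8% of the summed level of the 7 transcripts with vehicle, 56.9 to 62.1% with PM and 70.3 to 79.8% with OI and PM. The summed level was 3374 to 3698 CPM per kb in the 8 libraries without OI and 5536 to 6117 CPM per kb in the 4 libraries with OI.

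**Figure D1:**
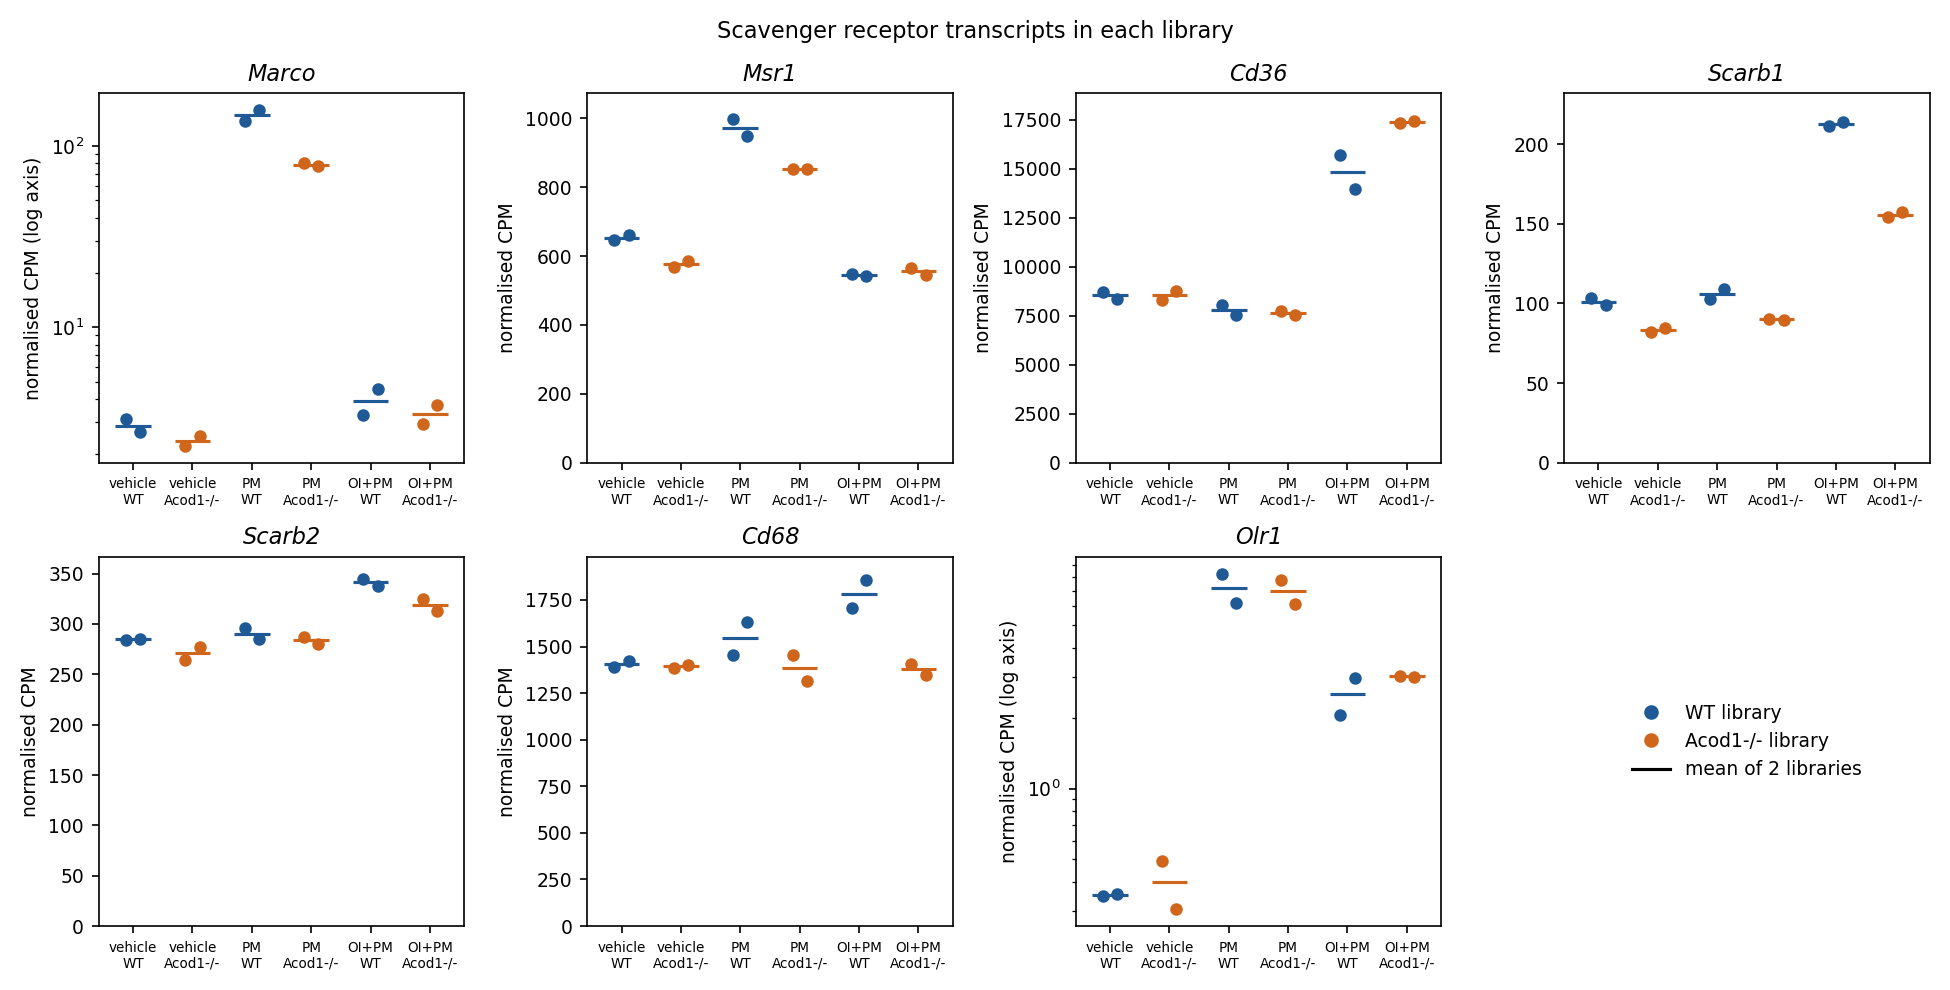
Normalised CPM of each receptor in the 12 libraries, by treatment and genotype. Points are libraries, lines are means of 2 libraries, and Marco and Olr1 are drawn on a log axis. Marco, at 2.21 to 3.10 CPM with vehicle, reached 77.1 to 157 CPM with PM and was at 2.92 to 4.57 CPM with OI and PM.

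The first comparison asked which receptors change when macrophages meet PM. Marco, Olr1 and Msr1 rose in both genotypes, and none of the other 4 passed the test. Of the 7 members, 3 were called higher in WT and 3 in Acod1-/- BMDMs at an adjusted p of 0.05 or less, and none was called lower. Across all tested genes 12.6% were called higher and 12.2% lower in WT, and 12% higher and 11.9% lower in Acod1-/-. Changes of at least 2-fold that were also called, referred to as DEGs, numbered 2 of 7 members in each genotype, against 4.15% of tested genes in WT and 4.5% in Acod1-/-. The median log2 fold change of the members was 0.13 in WT and 0.11 in Acod1-/-, against 0.01 and 0.000 over all genes tested. Olr1 passed the filter on low counts only through its PM-exposed libraries, so its call is not independent of that filter.

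Marco, the collagenous particle receptor, stood at 3.10 and 2.62 CPM in the vehicle-treated WT libraries and at 138 and 157 CPM in the PM-treated ones. In Acod1-/- BMDMs it stood at 2.21 and 2.5 CPM with vehicle and at 80.2 and 77.1 CPM with PM. Every PM-treated library was far above every vehicle-treated one. The rise was 51.5-fold in WT (log2 fold change 5.69, SE 0.16, adjusted p = 4.0e-08) and 33.3-fold in Acod1-/- (log2 fold change 5.06, SE 0.16, adjusted p = 5.9e-08). Leaving out any one library gave log2 fold changes of 5.57 to 5.81 in WT and 4.97 to 5.15 in Acod1-/-.

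Olr1, the receptor for oxidised low-density lipoprotein, was close to the floor with vehicle, with 11 to 18 counts per library. It rose from 0.35 and 0.36 CPM to 8.26 and 6.17 CPM in WT, and from 0.49 and 0.31 CPM to 7.73 and 6.15 CPM in Acod1-/-. The groups did not overlap in either genotype. The change was 20.3-fold in WT (log2 fold change 4.34, SE 0.28, adjusted p = 4.4e-06) and 17.2-fold in Acod1-/- (4.11, SE 0.28, adjusted p = 5.0e-06). Even after PM it stayed at 2.02 ± 0.41 CPM per kb in WT, the lowest level of the 7 receptors. Leaving out any one library gave log2 fold changes of 4.12 to 4.54 in WT.

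Msr1, the class A receptor for modified lipoproteins, moved less but with little spread. It went from 646 and 660 CPM to 998 and 948 CPM in WT, and from 569 and 586 CPM to 852 and 853 CPM in Acod1-/-. All PM-treated libraries lay above all vehicle-treated ones, with a 1.49-fold change in WT (log2 fold change 0.58, SE 0.05, adjusted p = 3.6e-05) and 1.48-fold in Acod1-/- (0.56, SE 0.05, adjusted p = 3.4e-05). The WT value stayed between 0.54 and 0.61 without any one library.

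The class B receptors and Cd68 were not called after PM. Cd36 stood at 8713 and 8359 CPM with vehicle and at 8060 and 7534 CPM with PM in WT, a log2 fold change of -0.13 (95% confidence interval -0.28 to 0.02). In Acod1-/- its libraries held 8325 and 8740 CPM with vehicle and 7731 and 7527 CPM with PM, a log2 fold change of -0.16 (-0.31 to -0.010, adjusted p = 0.11). Its PM-treated libraries were all below the vehicle-treated ones, by an amount that did not pass the test. For the HDL receptor Scarb1 the log2 fold change was 0.07 in WT (-0.07 to 0.20) and 0.11 in Acod1-/- (-0.02 to 0.24). Scarb2 had 0.03 in WT (-0.09 to 0.15) and 0.07 in Acod1-/- (-0.05 to 0.19). Cd68 had 0.13 in WT (-0.03 to 0.30) and -0.01 in Acod1-/- (-0.18 to 0.16). These intervals leave room for changes of up to about 0.3 on the log2 scale. With an offset for gene length, Scarb1 (0.25, adjusted p = 0.047) and Scarb2 (0.15, adjusted p = 0.042) were called higher in Acod1-/-. With that offset and the replicate block, Scarb1 was also called higher in WT (0.23, adjusted p = 0.048) and Cd68 lower in Acod1-/- (-0.22, adjusted p = 0.042). On the compared groups alone, Cd36 was called lower in Acod1-/- (-0.155, adjusted p = 0.016).

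**Figure D2:**
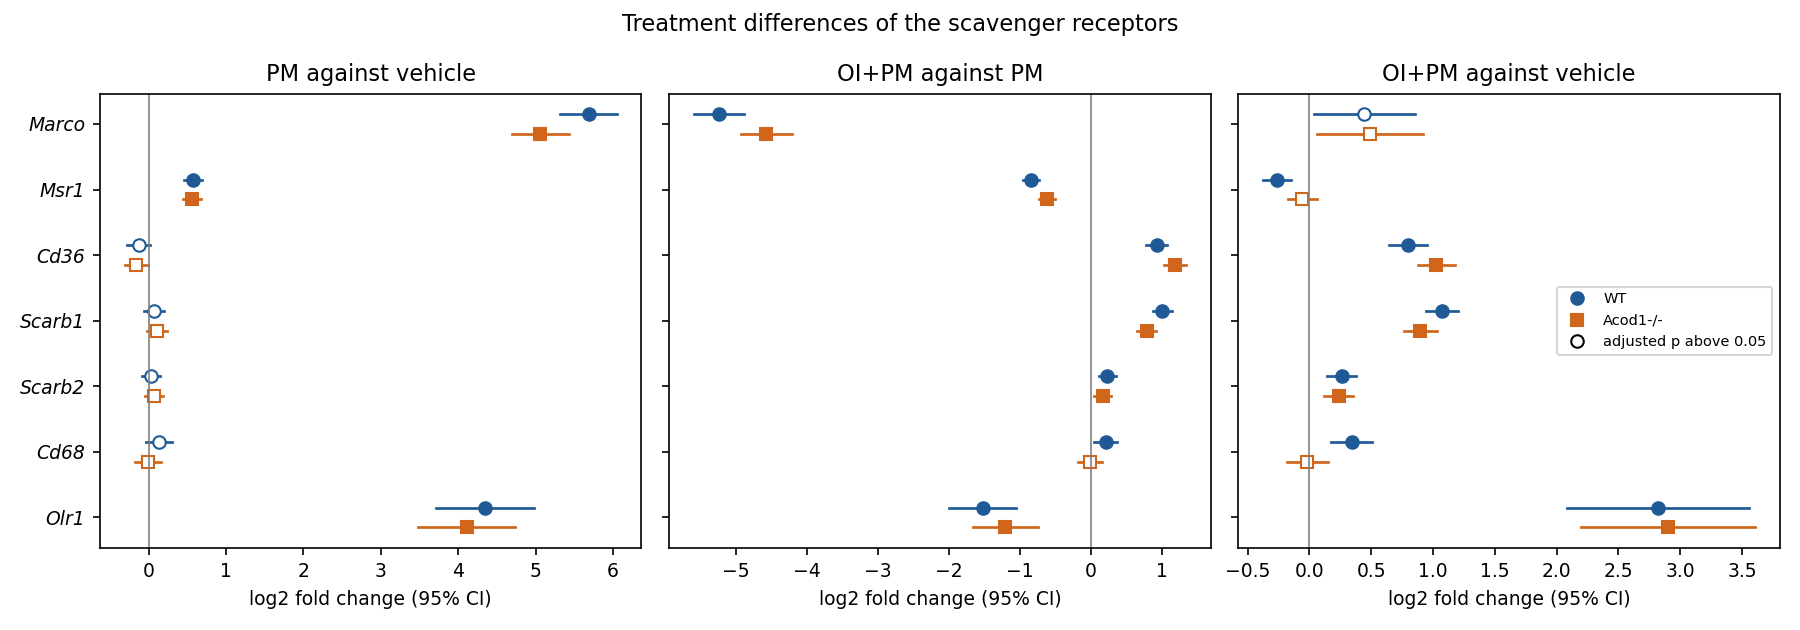
Log2 fold change of each receptor with its 95% confidence interval, for PM against vehicle, OI and PM against PM, and OI and PM against vehicle. Circles are WT and squares are Acod1-/-, filled where the adjusted p was 0.05 or less. Marco lies at 5.69 and 5.06 with PM and at -5.24 and -4.57 when OI was added, while Cd36 lies at 0.93 and 1.19 with OI.

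The second comparison asked how OI given before PM alters the same receptors. The 3 receptors that rose with PM fell with OI, and the class B receptors rose, in both genotypes. In WT BMDMs 4 members were called higher and 3 lower, where 21.3% of all tested genes were called higher and 22.6% lower. In Acod1-/- 3 were called higher and 3 lower, where 13.9% were called higher and 20.6% lower. DEGs numbered 3 of 7 in each genotype, against 10.8% of tested genes in WT and 9.83% in Acod1-/-. The members' median log2 fold change was 0.21 in WT and -0.007 in Acod1-/-, against 0.02 and -0.001 over all tested genes. PM against vehicle and OI and PM against PM share the PM-treated libraries, so their values are not independent.

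Marco fell from 138 and 157 CPM to 3.26 and 4.57 CPM in WT and from 80.2 and 77.1 CPM to 2.92 and 3.70 CPM in Acod1-/-. No library with OI came near any library with PM alone. The log2 fold change was -5.24 in WT (SE 0.16, adjusted p = 6.5e-09) and -4.57 in Acod1-/- (SE 0.16, adjusted p = 1.4e-08). Without any one of the WT libraries concerned, it ranged from -5.49 to -5.01.

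Msr1 fell to 548 and 541 CPM in WT and to 565 and 546 CPM in Acod1-/-, below its level with PM in every library. The log2 fold changes were -0.84 in WT (SE 0.05, adjusted p = 6.9e-07) and -0.62 in Acod1-/- (SE 0.05, adjusted p = 6.8e-06). Olr1 fell to 2.07 and 2.98 CPM in WT and to 3.04 and 2.99 CPM in Acod1-/-. Its log2 fold changes were -1.53 in WT (SE 0.21, adjusted p = 0.00025) and -1.20 in Acod1-/- (SE 0.20, adjusted p = 0.0011), and its groups did not overlap. Without any one library the WT values were -0.88 to -0.81 for Msr1 and -1.80 to -1.28 for Olr1.

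Cd36, the fatty acid and oxidised lipoprotein receptor, rose to 15710 and 13960 CPM in WT and to 17360 and 17450 CPM in Acod1-/-. Each library with OI was above each library without it. The change from PM alone was 1.90-fold in WT (log2 fold change 0.93, SE 0.07, adjusted p = 2.5e-06) and 2.28-fold in Acod1-/- (1.19, SE 0.07, adjusted p = 4.6e-07). Leaving out either OI and PM-treated WT library, or either PM-treated WT library, kept the WT value between 0.84 and 1.01.

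Scarb1 rose from 103 and 109 CPM to 211.8 and 214 CPM in WT, and from 90.2 and 89.9 CPM to 154 and 157 CPM in Acod1-/-. The libraries with and without OI were well apart, by 2.01-fold in WT (log2 fold change 1.01, SE 0.06, adjusted p = 4.8e-07) and 1.73-fold in Acod1-/- (0.79, SE 0.06, adjusted p = 3.0e-06), and the WT value stayed between 0.960 and 1.053 without any one library. Scarb2 rose to 345 and 338 CPM in WT and to 325 and 313 CPM in Acod1-/-, from 280 to 296 CPM with PM alone. That change was small, with log2 fold changes of 0.23 in WT (SE 0.05, adjusted p = 0.0060) and 0.17 in Acod1-/- (SE 0.05, adjusted p = 0.035). Scaling by total counts ended both Scarb2 calls (0.10, adjusted p = 0.20 in WT and 0.098, adjusted p = 0.26 in Acod1-/-), and that scaling moved the median of all tested genes from 0.02 to -0.11 in WT. On the compared groups alone the WT call was lost (0.215, adjusted p = 0.23). The Acod1-/- call was also lost with the filter on all 12 libraries (0.15, adjusted p = 0.054) and without any one of its 4 libraries (0.14 to 0.19, adjusted p = 0.083 to 0.20), and the WT value was 0.205 to 0.26 with 1 library left out.

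Cd68 stood at 1453 and 1634 CPM with PM and 1709 and 1859 CPM with OI and PM in WT, and at 1453 and 1315 CPM and then 1408 and 1346 CPM in Acod1-/-. It was called higher in WT, by 0.21 on the log2 scale (SE 0.07, adjusted p = 0.045), while the value in Acod1-/- was -0.007 (-0.17 to 0.16) with overlapping groups. The WT call was lost under 8 of 13 alternatives, among them the offset for gene length (0.05, adjusted p = 0.63), the fit without PM-treated WT replicate 1 (0.12, adjusted p = 0.28) and the fit without OI and PM-treated WT replicate 2 (0.15, adjusted p = 0.17).

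**Figure D3:**
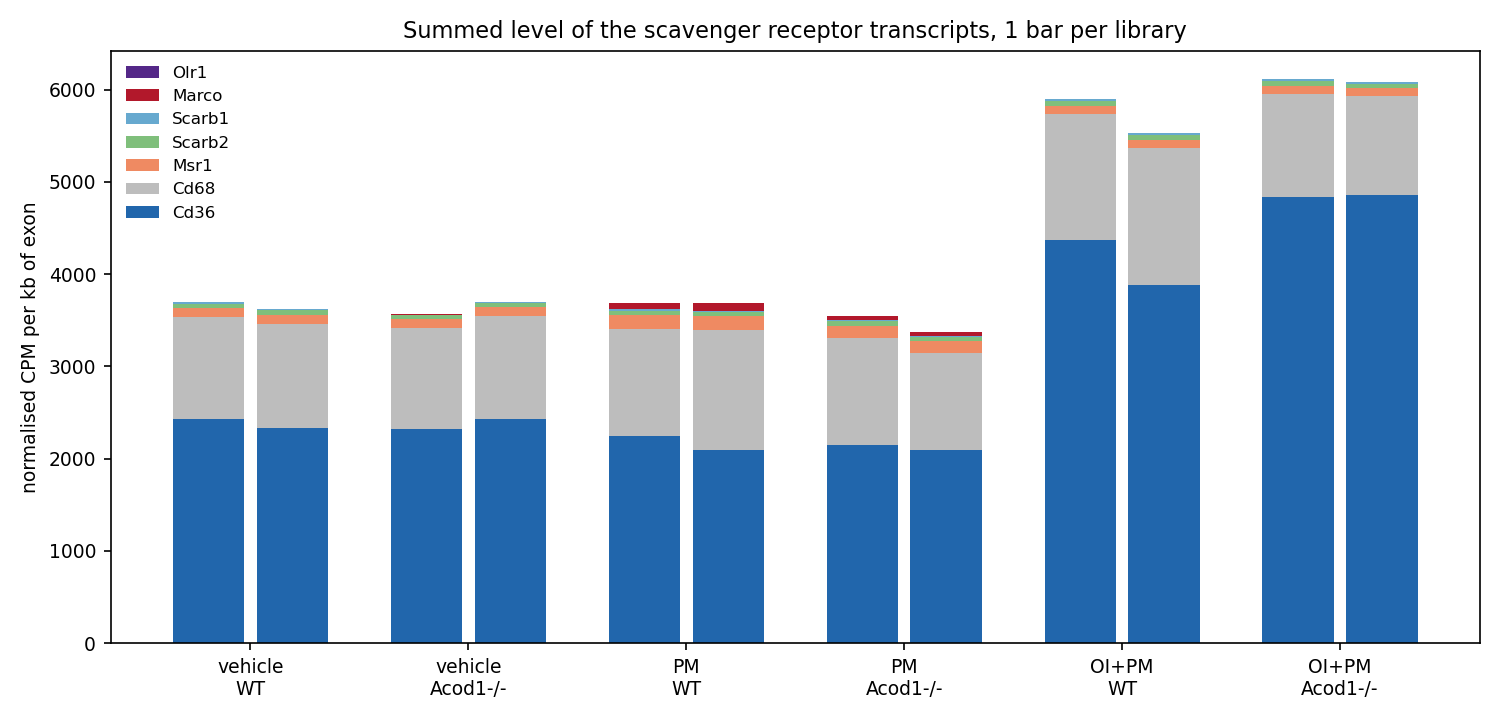
Level of the 7 receptor transcripts per kb of exon, stacked in 1 bar per library, in CPM per kb. The 4 bars with OI reach 5536 to 6117 CPM per kb, the other 8 reach 3374 to 3698 CPM per kb, and Cd36 is the largest part of every bar.

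OI and PM together were also set against vehicle, which shows where each receptor ended. Of the 7 members, 5 were called higher and 1 lower in WT, and 4 higher and none lower in Acod1-/-. In this comparison 33.6% of all tested genes were called higher and 31.9% lower in WT, and 22.7% higher and 26.7% lower in Acod1-/-. DEGs numbered 2 of 7 in each genotype, against 16.1% of tested genes in WT and 13.1% in Acod1-/-. Marco was not called, with log2 fold changes of 0.45 in WT (0.04 to 0.85, adjusted p = 0.053) and 0.49 in Acod1-/- (0.06 to 0.92, adjusted p = 0.059), and DESeq2 called it higher in both (adjusted p = 0.032 and 0.027). It was also called without OI and PM-treated replicate 1, at 0.68 in WT (adjusted p = 0.0064) and 0.65 in Acod1-/- (adjusted p = 0.047). Without OI and PM-treated replicate 2 the values were lower, at 0.19 in WT (adjusted p = 0.42) and 0.31 in Acod1-/- (adjusted p = 0.33). The length offset gave 0.11 and 0.32 (adjusted p = 0.45 and 0.068), total count scaling 0.22 and 0.34 (adjusted p = 0.25 and 0.13), and the compared groups alone 0.43 and 0.50 (adjusted p = 0.15 and 0.0080). Olr1 remained above its vehicle level, at 7.06-fold in WT (log2 fold change 2.82, SE 0.33, adjusted p = 5.5e-05) and 7.48-fold in Acod1-/- (2.9, SE 0.31, adjusted p = 3.6e-05). Msr1 ended below vehicle in WT, at -0.26 (SE 0.05, adjusted p = 0.0015), a call kept at -0.48 under total count scaling and -0.14 with the length offset, and had -0.06 in Acod1-/- (-0.17 to 0.06), where total count scaling called it lower (-0.21, adjusted p = 0.016).

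Cd36 and Scarb1 ended above vehicle in both genotypes. Cd36 had log2 fold changes of 0.80 in WT and 1.03 in Acod1-/- (SE 0.07 each, adjusted p = 5.7e-06 and 9.6e-07), and Scarb1 had 1.07 and 0.90 (SE 0.06 each, adjusted p = 2.1e-07 and 8.6e-07). Scarb2 was at 0.26 in WT and 0.24 in Acod1-/- (adjusted p = 0.0020 and 0.0048), and total count scaling ended both calls (0.040 and 0.088, adjusted p = 0.58 and 0.26). The Scarb2 call was also lost in WT on the compared groups alone (adjusted p = 0.063) and in Acod1-/- without vehicle-treated replicate 1 (0.20, adjusted p = 0.056). Cd68 was at 0.34 in WT (SE 0.07, adjusted p = 0.0028) and at -0.02 in Acod1-/- (-0.19 to 0.15). With an offset for gene length the WT value of Cd68 turned to -0.08 (adjusted p = 0.42), and Cd68 was called lower in Acod1-/- (-0.24, adjusted p = 0.033). Total count scaling also ended the WT call (0.12, adjusted p = 0.12). Without any one library the WT values were 0.71 to 0.88 for Cd36, 1.04 to 1.11 for Scarb1, 0.245 to 0.28 for Scarb2, 0.28 to 0.40 for Cd68, 2.54 to 3.07 for Olr1 and -0.28 to -0.25 for Msr1.

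The third comparison asked how the receptors differ between Acod1-/- and WT within a treatment, where genotype and substrain cannot be told apart. The largest of the called differences was in Marco. In vehicle-treated BMDMs 1 of 7 members was called, against 1.83% of all tested genes, with PM 1 of 7 against 2.4%, and with OI and PM 2 of 7 against 6.96%. All 4 of these calls were lower in Acod1-/-. With 1 library left out, the Marco difference after PM was -1.001 to -0.81, and after OI and PM the values were -0.47 to -0.44 for Scarb1 and -0.43 to -0.31 for Cd68. None was a DEG, a class that held 0.481%, 0.561% and 0.917% of the tested genes in the same order.

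With PM, Marco stood at 80.2 and 77.1 CPM in Acod1-/- and at 138 and 157 CPM in WT, without overlap. The level in Acod1-/- was 0.53 times that in WT (log2 fold change -0.91, SE 0.12, adjusted p = 0.0050). Without either Acod1-/- library the value was -0.93 or -0.88 and the adjusted p rose to 0.064 or 0.071. With vehicle the difference was -0.28 (-0.71 to 0.15) and with OI and PM -0.24 (-0.65 to 0.17), neither of which passed the test.

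Scarb1 was lower in Acod1-/- at each treatment. Its libraries held 82.3 and 84.7 CPM against 104 and 98.7 CPM with vehicle (log2 fold change -0.28, SE 0.06, adjusted p = 0.048), a call that was lost under 10 of 13 alternatives, including the fits without each of the 4 libraries. With PM they held 90.2 and 89.9 CPM against 103 and 109 CPM (-0.23, adjusted p = 0.078, and 0.012 by DESeq2). With OI and PM they held 154 and 157 CPM against 211.8 and 214 CPM (-0.45, SE 0.06, adjusted p = 0.0028). No Acod1-/- library overlapped a WT library of the same treatment. The call with OI and PM was lost on the compared groups alone (-0.43, adjusted p = 0.28) and without OI and PM-treated Acod1-/- replicate 1 (-0.44, adjusted p = 0.052).

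Cd68 with OI and PM stood at 1408 and 1346 CPM in Acod1-/- against 1709 and 1859 CPM in WT (log2 fold change -0.37, SE 0.07, adjusted p = 0.020). The call was lost with an offset for gene length (-0.18, adjusted p = 0.16) and without OI and PM-treated WT replicate 2 (-0.31, adjusted p = 0.058) or either Acod1-/- replicate (-0.41 and -0.34, adjusted p = 0.11 and 0.16), and on the compared groups alone (-0.35, adjusted p = 0.32). Cd36 with OI and PM was at 17360 and 17450 CPM in Acod1-/- against 15710 and 13960 CPM in WT. That difference did not pass the test (0.23, SE 0.07, adjusted p = 0.069), but did without OI and PM-treated WT replicate 1 (0.32, adjusted p = 0.0035), by DESeq2 (0.24, adjusted p = 0.038) and with an offset for gene length (0.29, adjusted p = 0.047). Without OI and PM-treated WT replicate 2 the Cd36 difference was 0.15 (adjusted p = 0.24). For Msr1, Scarb2 and Olr1 no genotype difference was called under any treatment, with log2 fold changes from -0.19 to 0.27. Msr1 with PM (-0.19, adjusted p = 0.095) was called with the length offset (-0.21, adjusted p = 0.027), and with vehicle (-0.18, adjusted p = 0.17) on the compared groups alone (-0.19, adjusted p = 2.8e-05).

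**Figure D4:**
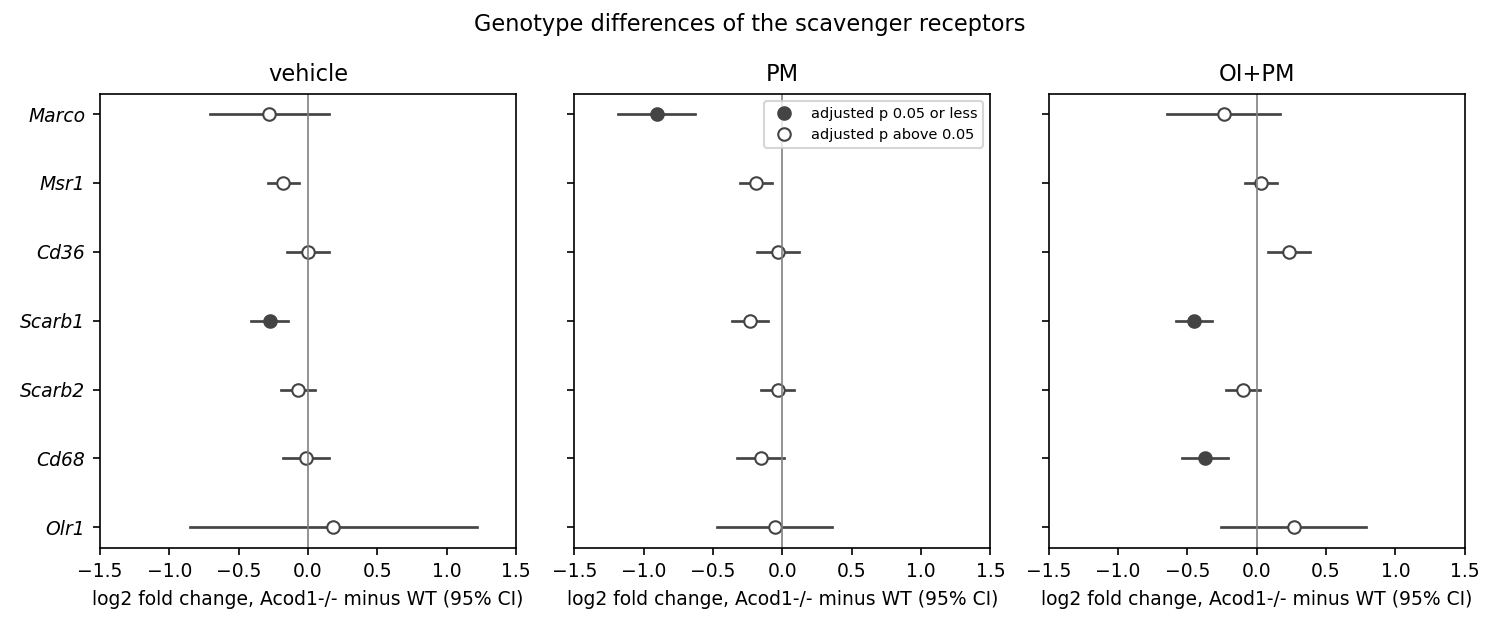
Log2 fold change of Acod1-/- against WT for each receptor with its 95% confidence interval, within vehicle, PM and OI and PM. Filled points had an adjusted p of 0.05 or less: Scarb1 at -0.28 with vehicle, Marco at -0.91 with PM, and Scarb1 at -0.45 and Cd68 at -0.37 with OI and PM.

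Whether a treatment acted differently in the genotypes, again not separable from substrain, was tested by an interaction in edgeR. No member was called for PM or for OI, where 0% of the 11228 genes were called or DEGs. At an unadjusted p under 0.05 there were 273 genes and 1 member for PM, and 717 genes and 4 members for OI. DESeq2 called 3 genes for PM and 34 for OI, none of them a member. The rise of Marco with PM was smaller in Acod1-/- by 0.63 (95% confidence interval -1.14 to -0.12, adjusted p = 0.9998), and its fall with OI was smaller by 0.67 (0.18 to 1.16, adjusted p = 0.70). With OI the fall of Msr1 was smaller in Acod1-/- by 0.22 (0.06 to 0.38, adjusted p = 0.70). The rise of Scarb1 was smaller by 0.22 (-0.40 to -0.03, adjusted p = 0.76). The rise of Cd36 with OI was larger in Acod1-/- by 0.26 (0.05 to 0.48, adjusted p = 0.75), a difference that was called without OI and PM-treated WT replicate 1 (0.35, adjusted p = 0.046) and was 0.18 without replicate 2 of that group (adjusted p = 0.74).

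Across the 12 libraries the log2 levels of Marco and Msr1 ran together, with a Pearson correlation of 0.94, and so did those of Scarb1 and Scarb2, at 0.97. Cd36 correlated with Scarb1 at 0.87 and with Msr1 at -0.72. These 12 points share 6 groups, so the values describe the treatments. The genes with the most similar pattern over the 12 libraries, among those with a mean of at least 5 CPM, were Gpr84, Aoah and Pdia4 for Marco (Pearson 0.982, 0.982 and 0.980). For Cd36 they were Xpo1 (0.997), Slc16a6 (0.992) and Golim4 (0.987), for Scarb1 Sept9 (0.996), Plk3 (0.989) and Acvrl1 (0.988), and for Olr1 Gsap (0.988), Nfkbie (0.988) and Cd302 (0.986). The group means of Msr1, Scarb2 and Cd68 spanned less than 1 on the log2 scale, and no similar genes were sought for them.

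Other genes listed as scavenger receptors, among them the secreted protein Cd5l, were followed for comparison. Of 13 listed, 9 passed the filter, and with PM 2 rose and 4 fell in WT and 2 rose and 3 fell in Acod1-/-. Across all tested genes 12.6% were called higher and 12.2% lower with PM in WT, and 12% and 11.9% in Acod1-/-. Cxcl16, a transmembrane chemokine that also binds oxidised lipoprotein, rose from 27.4 ± 0.87 to 109 ± 7.40 CPM in WT (log2 fold change 1.99, adjusted p = 2.0e-05) and had a log2 fold change of 2.18 in Acod1-/- (adjusted p = 8.0e-06). Scarf1, a class F receptor, rose by less, at 0.42 and 0.45 (adjusted p = 0.021 and 0.015). The haemoglobin receptor Cd163 (-0.68 and -0.67) and the stabilins Stab1 (-0.43 and -0.52) and Stab2 (-1.11 and -0.96) fell in both genotypes. The endocytic receptor Lrp1 fell in WT (-0.81, adjusted p = 0.038) and had -0.68 in Acod1-/- (adjusted p = 0.073). Its PM-treated WT libraries held 1458 and 986.6 CPM, and the call was lost without PM-treated replicate 2 (-0.56, adjusted p = 0.25) or either vehicle-treated library. The same 3 omissions ended the WT calls of Stab1 and Scarf1 (adjusted p up to 0.205 and 0.16), and leaving out either vehicle-treated library ended that of Cd163. In Acod1-/- the call of Cd163 was lost without any one of its 4 libraries, those of Stab1 and Scarf1 without PM-treated replicate 1 or either vehicle-treated library, and that of Stab2 without PM-treated replicate 2. The length offset brought Stab1 to -0.22 in WT and -0.33 in Acod1-/-, and Lrp1 to -0.455 in WT (adjusted p = 0.013, 0.0012 and 0.010).

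With OI none of these 9 genes was called higher, and 6 fell in each genotype. Across all tested genes 21.3% were called higher and 22.6% lower with OI in WT, and 13.9% and 20.6% in Acod1-/-. Stab1 went from 745 ± 73.0 to 175 ± 36.9 CPM in WT (log2 fold change -2.09, adjusted p = 6.9e-07) and had -1.48 in Acod1-/- (adjusted p = 8.2e-06). Stab2 (-2.64 and -2.32), Cxcl16 (-1.62 and -2.04), Cd163 (-1.88 and -0.94) and Cd5l, a secreted protein of tissue macrophages (-1.01 and -0.80), also fell in both. The collectin Colec12 fell in WT (-0.45, adjusted p = 0.0037) and had -0.15 in Acod1-/- (adjusted p = 0.27). Scarf2 fell in Acod1-/- (-1.15, adjusted p = 0.0077) and had -0.26 in WT (adjusted p = 0.42). Class B members Cd36 and Scarb1 rose in the same libraries. Stab2 and Cd163 passed the filter on their libraries without OI, so their lower calls are not independent of that filter. With OI and PM, Stab2 held 12 to 26 counts in WT and 19 to 33 in Acod1-/-. Cd163 held 19 to 36 and 39 to 52 counts there, and Scarf2 27 to 31 in Acod1-/-.

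Genes that handle the lipids taken up by Cd36 and Scarb1 moved in different directions with OI. Of 14 listed, 12 were tested: 3 rose and 5 fell in WT, and 3 rose and 6 fell in Acod1-/-. The shares of all tested genes called higher and lower were 21.3% and 22.6% in WT, and 13.9% and 20.6% in Acod1-/-. Abca1, the transporter that exports cholesterol to apolipoproteins, fell from 152 and 105 CPM to 9.25 and 6.16 CPM in WT, and from 245 and 260 CPM to 12.9 and 14.0 CPM in Acod1-/-. Its log2 fold changes were -4.05 (SE 0.22, adjusted p = 2.7e-07) and -4.23 (SE 0.21, adjusted p = 1.7e-07), with no overlap of libraries. Nr1h3, the nuclear oxysterol receptor LXR alpha, fell by 1.20 and 1.76 on the log2 scale (adjusted p = 3.9e-05 and 3.3e-06), and the fatty acid binding protein Fabp4 by 0.64 and 0.66. Fabp5 (-0.31 and -0.48) and Apoe (-0.34 and -0.49) fell in both, and the cholesterol carrier Npc2 in Acod1-/- (-0.44, adjusted p = 0.013).

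The lipid genes that rose with OI were lipoprotein lipase Lpl (0.55 in WT, adjusted p = 4.5e-05, and 0.44 in Acod1-/-, adjusted p = 0.00025), the lipid droplet coat Plin2 (0.51 and 0.46, adjusted p = 0.0024 and 0.0053) and the lysosomal acid lipase Lipa (0.34 and 0.53, adjusted p = 0.0076 and 0.00067). The WT value of Lipa was 0.21 to 0.46 with 1 library left out, lowest without OI and PM-treated replicate 1, and total count scaling ended that call (0.22, adjusted p = 0.11). With PM alone 4 of the 12 rose in each genotype, namely Fabp4, Fabp5, Npc2 and Nr1h3, at 0.39 to 0.86. The shares of all tested genes called higher and lower with PM were 12.6% and 12.2% in WT, and 12% and 11.9% in Acod1-/-. Pparg, a nuclear receptor of lipid metabolism, fell with PM by 0.66 in WT and 0.87 in Acod1-/- (adjusted p = 9.0e-05 and 1.3e-05). Lpl and Apoe fell with PM in Acod1-/- (-0.27 and -0.26, adjusted p = 0.0086 and 0.044), and had -0.14 and -0.205 in WT (adjusted p = 0.11 and 0.095). The Lpl call was lost with the length offset (-0.08, adjusted p = 0.635) or without replicate 2 of either group, and the Apoe call without any one of its 4 libraries, while the offset moved Apoe to -0.40 (adjusted p = 0.00041). With OI the log2 fold change of Pparg was -0.11 (adjusted p = 0.23) and -0.01 (adjusted p = 0.91). The WT calls of Npc2 and Nr1h3 with PM were lost without either vehicle-treated library or PM-treated replicate 2 (down to 0.27 and 0.425, adjusted p up to 0.25 and 0.092), and that of Npc2 in Acod1-/- without any one library. The WT call of Fabp5 with PM was lost without vehicle-treated replicate 2 (0.395, adjusted p = 0.055).

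**Figure D5:**
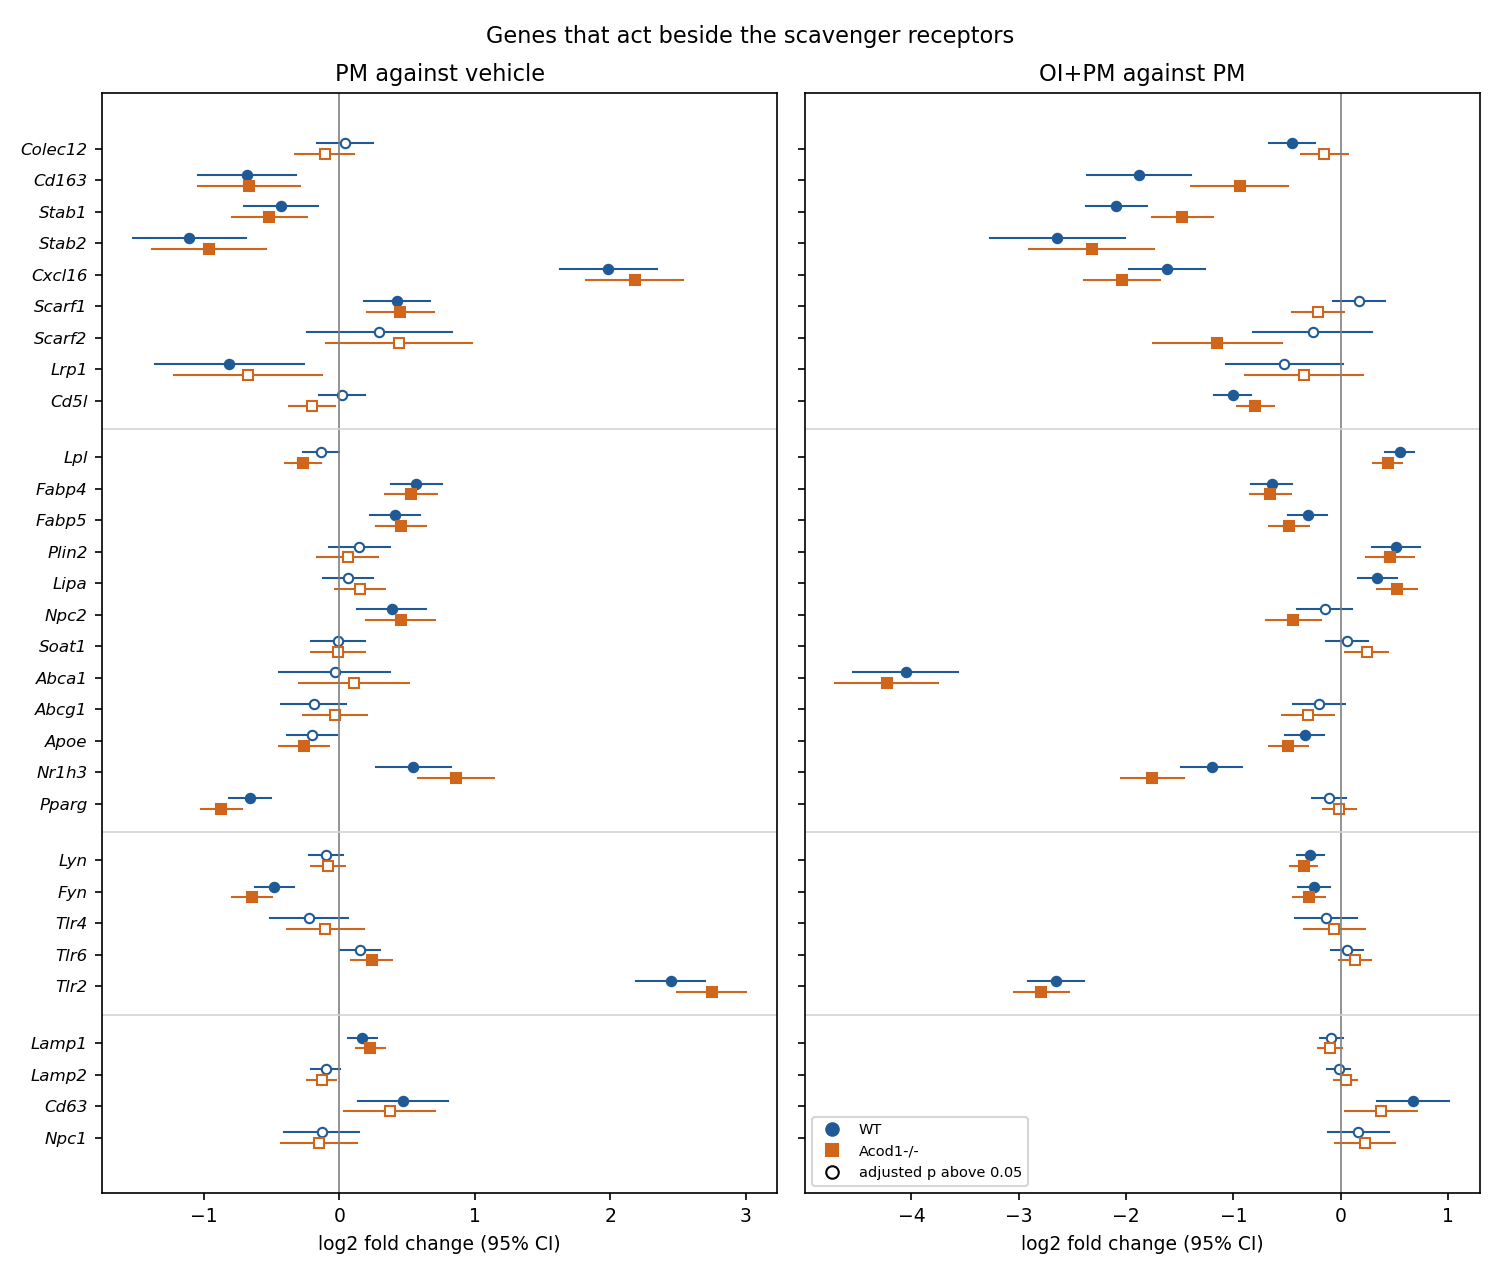
Log2 fold changes with 95% confidence intervals of the tested genes of 4 lists, from top to bottom other scavenger receptors, lipid uptake partners and targets, CD36 signalling partners, and lysosomal membrane genes. Circles are WT and squares Acod1-/-, filled at an adjusted p of 0.05 or less. Abca1 at -4.05 and -4.23 lies farthest from 0 with OI.

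All 5 signalling partners of CD36 were tested. Tlr2, which detects lipopeptides and can act with Cd36, rose with PM (log2 fold change 2.45 in WT and 2.75 in Acod1-/-, adjusted p = 4.8e-07 and 2.3e-07) and fell with OI (-2.65 and -2.79, adjusted p = 5.9e-08 and 4.3e-08). The Src family kinases Lyn (-0.28 and -0.34) and Fyn (-0.24 and -0.29) fell with OI, and Fyn also fell with PM (-0.48 and -0.65). Total count scaling moved the WT value of Fyn with OI to -0.37. Tlr6 rose with PM in Acod1-/- (0.24, adjusted p = 0.028) and had 0.15 in WT (adjusted p = 0.12), and the Acod1-/- call was lost without any one of its 4 libraries (adjusted p = 0.072 to 0.16) and under total count scaling (0.16, adjusted p = 0.12). Tlr4 was not called with PM or with OI in either genotype.

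Of 5 genes of the lysosomal membrane and its cholesterol export, 4 were tested. With PM, Lamp1, a main glycoprotein of that membrane, had log2 fold changes of 0.17 in WT and 0.23 in Acod1-/- (adjusted p = 0.032 and 0.0072). The WT call was lost under 8 of 13 alternatives and the Acod1-/- call under 4, with 0.03 and 0.13 under the length offset (adjusted p = 0.73 and 0.17). The tetraspanin Cd63 rose in WT (0.47, adjusted p = 0.046) and had 0.37 in Acod1-/- (adjusted p = 0.10). Its WT call was lost under 4 of 13 alternatives, among them the fit without PM-treated replicate 2 (0.32, adjusted p = 0.30). With OI, Cd63 rose in WT (0.68, adjusted p = 0.0049, with 0.38 to 0.92 when 1 library was left out, lowest without OI and PM-treated replicate 2) and none of the 4 was called in Acod1-/-. Npc1, which exports cholesterol from lysosomes, and Lamp2 were not called with PM or with OI. Fitted to the compared groups alone, the WT calls with OI of Cd63, Colec12, Fabp5, Plin2, Lipa, Apoe, Lyn and Fyn were lost (adjusted p = 0.07 to 0.22). Those of Fabp5, Apoe and Fyn were also lost without PM-treated replicate 2 (-0.21, -0.22 and -0.21, adjusted p = 0.083, 0.059 and 0.062). In Acod1-/- the OI call of Npc2 was lost without any one of its 4 libraries, those of Cd163 and Fyn without OI and PM-treated replicate 1, and that of Scarf2 without PM-treated replicate 1 or OI and PM-treated replicate 2.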

How the data were processed

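The members and the gene lists were chosen with earlier results of these data known. Reads were single-end, 50 bases long. Per the labels and the submitters' processing notes, the authors checked reads with FastQC 0.11.5, aligned them to GRCm38 with STAR 2.5.3a, used Picard 2.9.0, counted reads per gene with featureCounts, and deposited raw counts. The annotation release and the handling of strand and of reads with several positions are not given in the sources used here. All 12 libraries entered 1 edgeR 4.0.16 quasi-likelihood fit in R 4.3.3, with TMM scaling, a mean per group and no block, on genes with CPM above 1.5 in at least 2 libraries. P-values were adjusted by Benjamini-Hochberg over the 11228 genes tested. Normalised CPM are means ± SD of 2 libraries. Standard errors are the log2 fold change over the root of F, and 95% intervals use edgeR's degrees of freedom. A change of 2-fold (log2 of 1) with an adjusted p of 0.05 or less defines a DEG. Exonic lengths came from GENCODE M21, and promoters from RefSeq on GRCm38. The genes named are the members, the listed genes called with PM or OI, and for members spanning at least 1 on the log2 scale the 3 genes with the highest Pearson correlation. Acod1, Nnt and Wdfy1 were listed as checks. Tlr4, Lamp2 and Npc1, which were not called, were named outside this rule, after their values were seen. So were the single cell type markers Lyz2, Mertk, Fcgr1, Csf1r, Itgam, S100a8, S100a9, Ngp and Ly6g. Symbols were matched for 11208 of the 11228 tested genes. Sources do not say whether replicates came from separate animals or cultures, so p-values measure only the spread between these libraries, which may be technical. Alternatives were DESeq2 1.42.0, scaling by RLE or by total counts, an edgeR fit to only the groups compared, filters of 10 counts in all and of CPM above 1.5 in all 12 libraries, a replicate block, an offset for gene length (lowess, span 0.3), both together, a glmTreat test against a log2 fold change of 1, the adjusted p alone, and leaving out each library in turn, where the lone library of a group is assumed to vary like the others. A few listed genes are not reported here.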

Additional observations from a re-analysis of the deposited data

How the results depend on the processing

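Of 1053 member values under alternatives, 951 kept their direction and side of the threshold, 41 lost and 26 gained a call and 35 changed sign, and for listed genes called with PM or OI 780 of 862 kept both, 82 lost the call and 0 changed sign. The causes were not tested. Requiring a CPM above 1.5 in all 12 libraries, where Olr1 is not tested, left 1 DEG with PM in each genotype, 1 with OI in WT and 1 against vehicle in each. Total count scaling left 1 DEG against vehicle in each genotype, and glmTreat 1 in each and 1 with OI in WT. By adjusted p alone, members counted as DEGs were 7 (WT) and 6 (Acod1-/-) with OI, 6 and 4 against vehicle, and 1, 1 and 2 between genotypes with vehicle, PM and both. The length offset called 5 members with PM in Acod1-/-, and 6 with the replicate block too. Over all genes the offset alone called 3331 of 11214 in that comparison, against 2684 of 11228 in the main fit. Between genotypes with vehicle, 0 members were called under total count scaling, the 10-count filter, the 12-library filter, the block, the length offset or both, and 2 on the compared groups alone. With PM, 2 were called by DESeq2, the length offset, or offset and block, and with both agents 0 on the compared groups alone. Leaving out 1 library gave 0 to 0 members called between genotypes with vehicle, 0 to 1 with PM, 0 to 3 with both, 0 to 1 DEGs with PM, 1 to 2 DEGs against vehicle in Acod1-/- and 0 to 1 called for the OI interaction.

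Some values changed sign, 1 of them, Cd68 against vehicle in WT, called before. Under total count scaling Scarb1 with PM in WT was -0.027, and Scarb2 -0.064 in WT and -0.011 in Acod1-/-. With the length offset, without and with the block, Cd68 was -0.132 and -0.134 with PM in WT and -0.080 and -0.085 against vehicle in WT, Cd36 0.006 and 0.008 between genotypes with vehicle, and Msr1 -0.026 and -0.025 between genotypes with both agents and 0.025 and 0.025 against vehicle in Acod1-/-. With the 10-count filter Cd68 in Acod1-/- was 0.010 with OI and 0.005 against vehicle. Leave-one-out ranges crossed 0 for Scarb2 with PM in WT (-0.004 to 0.056), for Cd68 in Acod1-/- with PM (-0.085 to 0.060), with OI (-0.078 to 0.067) and against vehicle (-0.051 to 0.014), and between genotypes for Cd36 (-0.036 to 0.034 with vehicle, -0.079 to 0.015 with PM), Cd68 (-0.028 to 0.003 with vehicle), Olr1 (-0.202 to 0.479 with vehicle, -0.250 to 0.167 with PM) and Marco (-0.467 to 0.017 with both agents). For the PM interaction they crossed 0 for Msr1 (-0.051 to 0.025), Cd36 (-0.079 to 0.021) and Olr1 (-0.535 to 0.147).

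Replicate numbers share no stated origin, and same-numbered deviations correlated from -0.412 to 0.735 over 9 comparisons, so they were not treated as pairs. With the replicate block Cd36 between genotypes with vehicle was 0.000, the calls of Cd68 with OI in WT (adjusted p = 0.051) and Scarb1 between genotypes with vehicle (adjusted p = 0.067) were lost, and Marco against vehicle was called in WT (adjusted p = 0.044) and Acod1-/- (adjusted p = 0.048). Between genotypes with PM, edgeR called 269 genes, 255 with the block and 394 with the numbers of PM-treated Acod1-/- exchanged, an alternative chosen after seeing the data.

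Over all genes, fitting the compared groups alone moved the calls from 2684 to 5658 with PM in Acod1-/-, 4926 to 1939 with OI in WT, 5547 to 8351 against vehicle in Acod1-/-, and, between genotypes, 205 to 2316 with vehicle, 269 to 174 with PM and 782 to 2 with both. The length offset moved the genotype counts to 374, 588 and 1726, and called 21 genes for the OI interaction, and DESeq2 called 434 with PM and 1321 with both. Total count scaling moved the share of calls that were higher from 50.8% to 34.9% (WT) and 50.1% to 37.1% (Acod1-/-) with PM, from 48.5% to 29.9% and 40.3% to 29.7% with OI, from 51.3% to 30.9% and 45.9% to 28.4% against vehicle, where the median gene moved to -0.20 and -0.15, and from 36.1% to 53.4% between genotypes with both agents. Depth limits Olr1 most, at 11 to 18 counts with vehicle.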
